A study of Lupinus micranthus with 18 samples.

Results

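A set of 56 unigenes, of 81470 in the deposited table, was counted in leaves of America seedlings and was absent or nearly absent from leaves of Iceland seedlings. A unigene is an assembled transcript unit, the usual unit of measurement in a plant studied without a reference genome. A member had to have at most 3 counts summed over the 9 Iceland libraries and a mean of at least 10 counts over the 9 America libraries. These measured values chose the members, so the difference between the origins is given below as a description, with no test. The set is called the America-restricted unigenes here.

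The plants were seedlings of Lupinus micranthus, a lupin of the legume family, and RNA of their leaves was sequenced. America seedlings were left untreated or were kept under drought imposed with polyethylene glycol (PEG) for 24 h or 72 h, and Iceland seedlings were handled under the same 3 treatments. Each combination had 3 libraries, and the labels give no genotype, plant age, batch or hours for the untreated seedlings. PEG, harvest time and handling therefore cannot be told apart. Library totals ran from 9603068 to 12605500 counts. Whether replicates came from different plants is not stated, so a p-value here measures only the spread among these libraries, which may be technical. The files pair no identifier with a gene name or function, so the leaf origin of the RNA could not be checked against markers, and no role is given to any member.

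In a plant without a reference genome, reads of all libraries are commonly assembled into transcript units, and the reads of each library are then counted on them. A unit can be a whole transcript, a fragment of one or an allele, so 1 gene may be split over several units. PEG holds water back from roots by osmosis, and plants answer such stress with wide changes in transcript levels.

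The absence in Iceland leaves was complete for fewer than all members. Of the 56, 25 had 0 counts in the 9 Iceland libraries, 13 had 1 count, 6 had 2 counts and 12 had 3 counts. Together the members had 11514 counts in the America libraries and 61 counts in the Iceland libraries. By the rule, no Iceland library could hold more than 3 counts of any member. Those 61 counts were spread over all 9 Iceland libraries, from 1 count in PEG 24 h replicate 1 and in PEG 72 h replicate 2 to 14 counts in untreated replicate 1. For the 25 members with 0 counts, a limit of 3 counts over the Iceland libraries was taken, or 0.0316 CPM (the count scaled to a common library size after TMM normalisation). Through counting error, an observed 0 does not exclude a level above this limit. With counts pooled over the libraries of each origin, the America level was 27.3 to 176 times that limit, with a median of 45.6. These values are lower bounds of the fold over Iceland leaves. Pooled levels weight libraries by their size and so differ a little from a mean of CPM values. For the 31 members with 1 to 3 Iceland counts the ratio of America to Iceland levels lay between 28.2 and 1290. The limits of the rule set the low ends of both ranges. Such limits, and the intervals given with ratios, include counting error alone. In leaf RNA of this kind, fewer cells that hold a transcript and less RNA per cell cannot be told apart.

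The limits of the rule did not fall in a gap of the values. Just inside the America minimum stood Unigene0024828, with 90 America counts, and Unigene0003008, with 93. Just outside it stood Unigene0048381, with 89, and Unigene0006185, with 88. At the Iceland limit, Unigene0004184 and Unigene0011024 had America means of 24.6 and 16.9 counts beside 3 Iceland counts each, while Unigene0010984 and Unigene0020149 had America means of 12.9 and 11 counts beside 4 Iceland counts each and were left out. Among all unigenes with an America mean of at least 10, 15 had exactly 4 Iceland counts and 8 had exactly 5. The number of members rose to 95 without untreated Iceland replicate 1 and to 93 without PEG 72 h Iceland replicate 3, because the counts of that library no longer entered the sum. The mirrored rule, at most 3 counts over the America libraries and a mean of at least 10 over the Iceland libraries, found 271 unigenes. The difference between 56 and 271 was not tested.

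**Figure D1:**
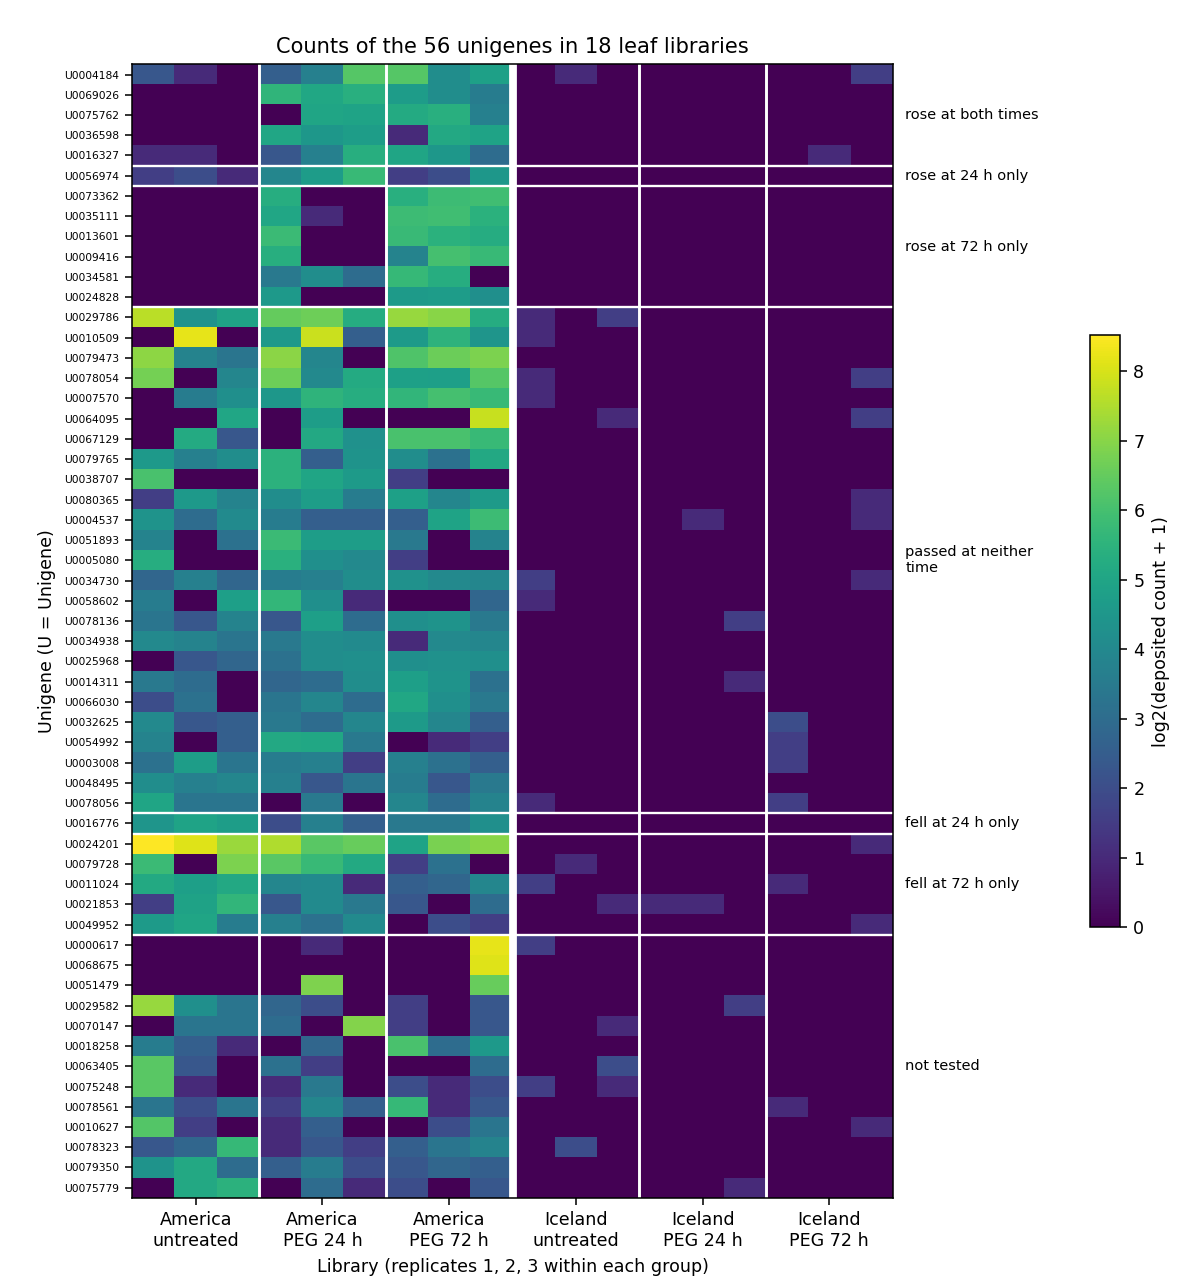
Deposited counts of the 56 America-restricted unigenes (rows) in the 18 libraries (columns, America left of Iceland, treatments in time order, replicates 1 to 3 within each), as log2(count + 1), with rows grouped by the edgeR result in America leaves. The 9 Iceland columns hold 61 counts in all, and within America many rows are filled in some replicates of a treatment and empty in others.

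Most members were scarce. Their mean over the 9 America libraries ranged from 0.814 to 14.3 CPM with a median of 1.35 CPM, and 38 of the 56 had a mean under 20 counts. Per transcript length, the mean level ranged from 0.633 to 16.7 FPKM (the deposited value, scaled to transcript length and library size), with a median of 1.5 FPKM. Summed over all members they made up 111 CPM in America leaves, here on the library totals with no TMM scaling. By treatment the sum was 100 ± 31 CPM in untreated America leaves, 106 ± 18.5 after 24 h of PEG and 128 ± 32.7 after 72 h (SD, n = 3 each). The ranges of the 3 treatments overlapped. In Iceland leaves the same sum was 0.846 ± 0.351, 0.297 ± 0.287 and 0.714 ± 0.534 CPM (SD, n = 3 each).

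On the length-scaled measure Unigene0010509 had the highest mean, 16.7 FPKM, with an implied length of 380 bases. Its level stood at 0, 73.3 and 0 FPKM in the untreated America libraries (replicates 1 to 3), at 5.58, 48.7 and 1.27 FPKM after 24 h, and at 5.30, 11.4 and 4.44 FPKM after 72 h. Replicate 2 was the highest library within each treatment, and 46.2% of the unigene's counts came from untreated replicate 2. Unigene0079473 came next at 12.7 FPKM. It stood at 24.2, 2.78 and 1.88 FPKM untreated, at 27.3, 2.61 and 0 FPKM after 24 h, and at 13.6, 21.2 and 20.7 FPKM after 72 h. Replicate 1 was far above the other libraries in untreated leaves and after 24 h, and the 3 libraries at 72 h lay close together. Neither passed the test at 24 h or 72 h against untreated leaves (edgeR adjusted p = 0.817 and 0.379 for Unigene0010509, 0.936 and 0.757 for Unigene0079473).

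In counts, which grow with transcript length, the largest member was Unigene0024201. It had 367, 276 and 151 counts in the untreated America libraries, 182, 80 and 92 after 24 h, and 30, 110 and 128 after 72 h, beside 1 count over all Iceland libraries. Every untreated library was above every 72 h library. The ratio of its America to its Iceland level was 1290, with a 95% counting interval of 231 to 51000. That interval shows how loosely 1 Iceland count fixes the ratio. The rule chose the member by these same counts, so the interval is no test of the origins. Unigene0029786, the longest member with an implied length of 4939 bases, had 198, 20 and 29 counts untreated, 90, 99 and 38 after 24 h and 146, 127 and 38 after 72 h. Its replicates within a treatment differed more than the treatments did (edgeR adjusted p = 0.835 at 24 h and 0.924 at 72 h).

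Members were seldom present in every America library. With detection set at more than 3 counts, 8 of the 56 were detected in all 9 America libraries, 32 in 5 to 8 of them and 16 in at most 4. With a count above 0 as the limit, 17 were detected in all 9 and 8 in at most 4. At more than 3 counts, 14.3% of the members were detected in all 9, against 89.0% of the 25204 other unigenes with an America mean of at least 10 counts. The members were also scarcer, with a median mean of 15.6 counts against 113 counts for those others. At a like level, a mean of 10 to 20 counts, 13.2% of the 38 America-restricted unigenes and 52.1% of the 3666 others had more than 3 counts in all 9 libraries, and 23.7% and 2.10% had so in at most 4. The coefficient of variation of CPM over the 9 libraries had a median of 1.08 in the America-restricted unigenes of that level and of 0.559 in the others. The 147 unigenes of the mirrored rule with an Iceland mean of 10 to 20 counts showed 4.08% in all 9 Iceland libraries and 45.6% in at most 4. These shares are descriptions, and a difference between the sets was not tested.

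**Figure D2:**
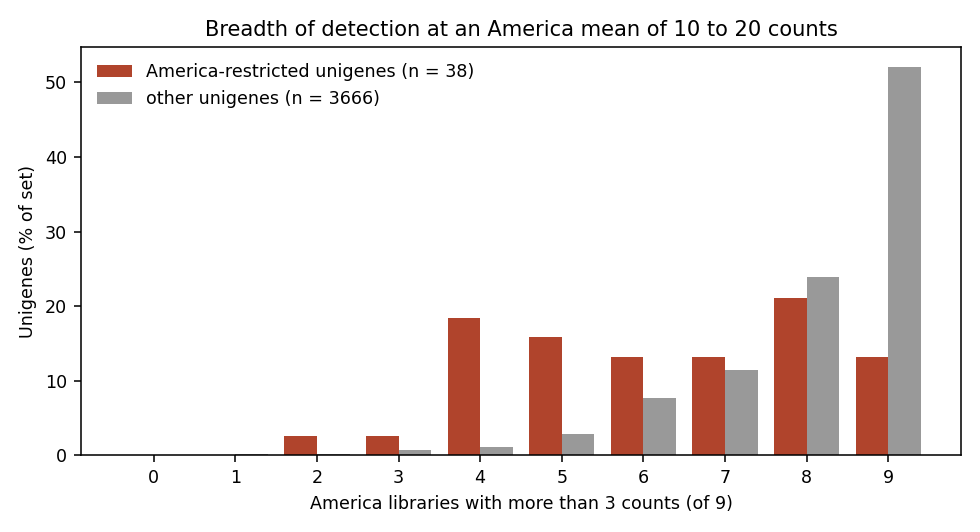
Share of unigenes (vertical axis, % of the set) by the number of America libraries with more than 3 counts (horizontal axis), for unigenes with an America mean of 10 to 20 counts. Red bars are the 38 America-restricted unigenes of that level, of which 13.2% reached all 9 libraries, and grey bars are the 3666 others, of which 52.1% did.

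The uneven detection ran between replicates of 1 treatment. In 24 of the 56 members at least 1 treatment had a replicate with 20 counts or more and another replicate with 0 counts. At a mean of 10 to 20 counts this held for 31.6% of the members and for 6.60% of the other unigenes. In 12 members at least 50% of all America counts came from 1 library. The extreme cases were Unigene0068675, with all of its 272 counts in PEG 72 h replicate 3, and Unigene0000617, with 297 counts, or 99.7% of its America counts, in the same library. Unigene0051479 had 116 counts in PEG 24 h replicate 2, 92 in PEG 72 h replicate 3 and 0 in the other America libraries. These 3 did not pass the filter on low counts, which asks for a minimum CPM in at least 3 libraries. At the steady end, Unigene0034730 had the lowest coefficient of variation, 0.326, with 6, 12 and 6 counts untreated, 11, 12 and 17 after 24 h and 19, 15 and 14 after 72 h, and with 3 Iceland counts. Unigene0034938 followed at 0.396, with 15, 13 and 9 counts untreated, 10, 17 and 16 after 24 h, 1, 15 and 14 after 72 h and 0 Iceland counts.

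Several members shared their pattern of filled and empty libraries. A group of 5, Unigene0009416, Unigene0013601, Unigene0024828, Unigene0035111 and Unigene0073362, had more than 3 counts in the same 4 America libraries, PEG 24 h replicate 1 and all 3 at 72 h. Unigene0073362 had 39 counts in PEG 24 h replicate 1 and 41, 57 and 59 counts at 72 h, and Unigene0013601 had 55 counts and then 54, 43 and 38. Both had 0 counts in the untreated libraries, in the other PEG 24 h libraries and in Iceland leaves. Across the whole table, 7 unigenes with an America mean of at least 10 had this pattern, and 5 of them were America-restricted. A pair, Unigene0005080 and Unigene0038707, shared another course. Unigene0038707 had 66, 0 and 0 counts untreated, 44, 31 and 24 after 24 h and 2, 0 and 0 after 72 h. Unigene0005080 had 39, 0 and 0 counts untreated, 42, 18 and 15 after 24 h and 2, 0 and 0 after 72 h. These were the only 2 unigenes in the table with that pattern and an America mean of at least 10. The patterns were looked for after the counts had been seen, and whether members of a pattern belong to 1 transcript or 1 source of RNA was not tested.

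More members were detected under PEG than without it. Untreated America libraries had more than 3 counts for 32, 30 and 32 of the 56 (replicates 1 to 3), PEG 24 h libraries for 42, 46 and 34, and PEG 72 h libraries for 37, 37 and 49. All 6 PEG libraries lay above all 3 untreated ones, while the summed level overlapped between treatments. The rule's mean covers these 6 PEG and 3 untreated libraries, which eases the entry of unigenes seen only under PEG. No like count per library was made for other unigenes. Over the whole table, 23858 to 24260 unigenes had at least 20 counts summed over a pair of untreated America libraries. Over a pair of America libraries of the same PEG treatment, 24989 to 25931 did. Over the 3 libraries of a treatment, 12 members had 0 counts in untreated America leaves, 1 had 0 after 24 h and none had 0 after 72 h. The corresponding shares of the members were 21.4%, 1.79% and 0%, against 0.238%, 0.0278% and 0.0397% of the other unigenes with an America mean of at least 10. At a mean of 10 to 20 counts, 15.8% of the America-restricted unigenes and 1.23% of the others had 0 counts in untreated leaves. No p-value is given for these sums over a chosen set.

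**Figure D3:**
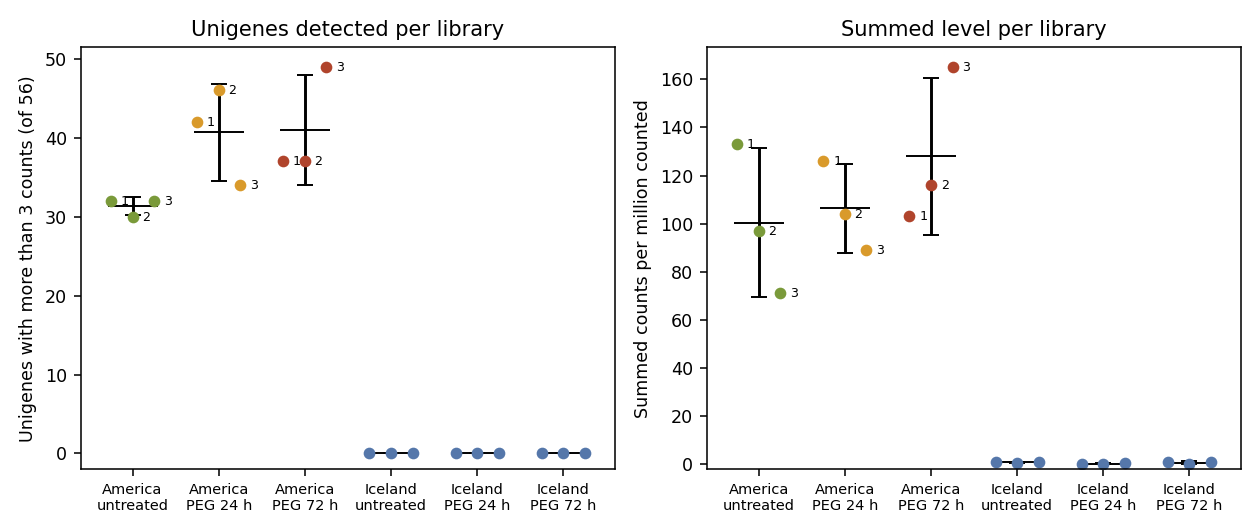
Each point is 1 library, numbered by replicate in America leaves, and bars give the mean and SD of the 3 libraries of a group. The left panel counts how many of the 56 America-restricted unigenes had more than 3 counts, with 30 to 32 in untreated America libraries and 34 to 49 in those under PEG. The right panel gives their summed CPM on the library totals, which overlapped between the America treatments.

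The next question was which members responded to PEG in America leaves. The rule did not compare these treatments, but its America mean took in their counts. Of the 9 America libraries, 6 were under PEG. A unigene high only under PEG therefore passed more easily than a unigene high only in untreated leaves. The directions below are not independent of that choice. Of the 56, 43 passed the filter on low counts and were tested among 30895 unigenes of the whole table. The 13 others include members with high counts in 1 or 2 libraries. A member can also have passed only through the treatment in which it was high, so the counts below describe the 43 and not the set as a whole. After 24 h of PEG, 6 members rose and 1 fell (edgeR quasi-likelihood test, Benjamini-Hochberg adjusted p under 0.05). That is 16.3% of the 43, against 31.1% of all unigenes tested. The background was 16.0% higher and 15.1% lower. After 72 h, 11 rose and 5 fell, or 37.2% against a background of 36.4% (18.4% higher and 18.0% lower). With limma-voom 14 of the 43 (32.6%) passed at 24 h, against a background of 30.2%, and 19 (44.2%) at 72 h, against 36.3%. With DESeq2 6 of 41 (14.6%) passed at 24 h, against 34.4%, and 9 (22.0%) at 72 h, against 39.3%. With this filter the share called by edgeR was near the background at 72 h and below it at 24 h. With no filter the members' share was above the background at both times: edgeR called 16 of the 56 (28.6%) at 24 h, against 10.6% of 75767 unigenes, and 20 (35.7%) at 72 h, against 12.7%. That wider background takes in unigenes of any count above 0, while each member has an America mean of at least 10. How the share called compares with the background therefore depends on the filter and, with the same filter, on the tool. The tested members were measured less precisely, with a median standard error of 1.04 on the log2 scale at 24 h against 0.39 over all unigenes tested, and a median biological coefficient of variation of 0.817 against 0.298. Their median log2 fold change was 0.50 at 24 h and 0.57 at 72 h, against 0.01 and 0.00 over all unigenes tested. The count at 24 h was 3 of 50 tested without PEG 24 h replicate 3, against a background of 20.2%, and 4 of 48 without untreated replicate 3, against 22.8%. The count at 72 h was 9 of 48, 8 of 47 and 8 of 48 without untreated replicates 1, 2 and 3, against 30.9%, 28.2% and 28.4%. It was 7 of 48 and 9 of 50 without PEG 72 h replicates 1 and 2, against 26.8% each. The balance of directions at 72 h also moved, to 4 that rose and 5 that fell with DESeq2 and to 3 and 5 without untreated replicate 3.

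Across both times, 5 members rose at both, 1 rose at 24 h only, 6 rose at 72 h only, 1 fell at 24 h only, 5 fell at 72 h only and 25 passed at neither. The 2 times share their untreated libraries. Of the 7 calls at 24 h and the 16 at 72 h, 6 and 13 had groups that did not overlap. In 4 of the 7 and 10 of the 16, 1 of the groups compared had at most 3 counts in all. Among the 43, 9 were higher and 5 lower at 24 h with no overlap, whether called or not, against 23.1% and 22.0% of all unigenes tested, and 13 were higher and 5 lower at 72 h, against 26.2% and 24.2%.

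The steadiest rise was that of Unigene0069026, with an implied length of 758 bases and 0 Iceland counts. It had 0 counts in all 3 untreated America libraries, 47, 33 and 41 counts after 24 h and 25, 17 and 11 after 72 h. All PEG libraries held it and no untreated library did. At 24 h it averaged 3.45 ± 0.812 CPM (SD, n = 3) and its pooled level was 34.5 times the limit of 3 counts over the untreated libraries (edgeR adjusted p = 0.000628). At 72 h it averaged 1.40 ± 0.544 CPM and its pooled level was 14.1 times that limit (edgeR adjusted p = 0.00122). Every 72 h library lay below every 24 h library, but the difference between the times did not pass (edgeR adjusted p = 0.343). Unigene0036598 also had 0 counts in untreated leaves, with 32, 22 and 26 counts after 24 h and 1, 34 and 30 after 72 h. Its level was at least 22.8-fold higher at 24 h and at least 17.3-fold higher at 72 h (edgeR adjusted p = 0.0135 and 0.0147). Replicate 1 at 72 h was close to empty while the other PEG libraries were alike.

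Among the tested members, the largest bounds at 72 h were those of Unigene0035111 and Unigene0073362, both from the group of 5 with a shared pattern. Unigene0035111 had 57, 59 and 43 counts at 72 h against 0, 0 and 0 untreated, a level at least 42.3-fold higher. The edgeR adjusted p was 0.0202, and DESeq2 gave 0.182. At 24 h it had 32, 1 and 0 counts, so that only replicate 1 resembled the 72 h libraries. Unigene0073362 had 4.15 ± 0.939 CPM at 72 h (SD, n = 3), at least 41.7-fold higher than untreated leaves (edgeR adjusted p = 0.033). Its call was lost with DESeq2 (adjusted p = 0.233) and without any 1 of the untreated or PEG 72 h libraries (edgeR adjusted p between 0.063 and 0.0728). The group was picked for being filled at 72 h and empty in untreated leaves, so its calls at 72 h add nothing to that choice. The calls of Unigene0009416, Unigene0013601 and Unigene0024828 were lost in 8, 7 and 8 of 16 refits.

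**Figure D4:**
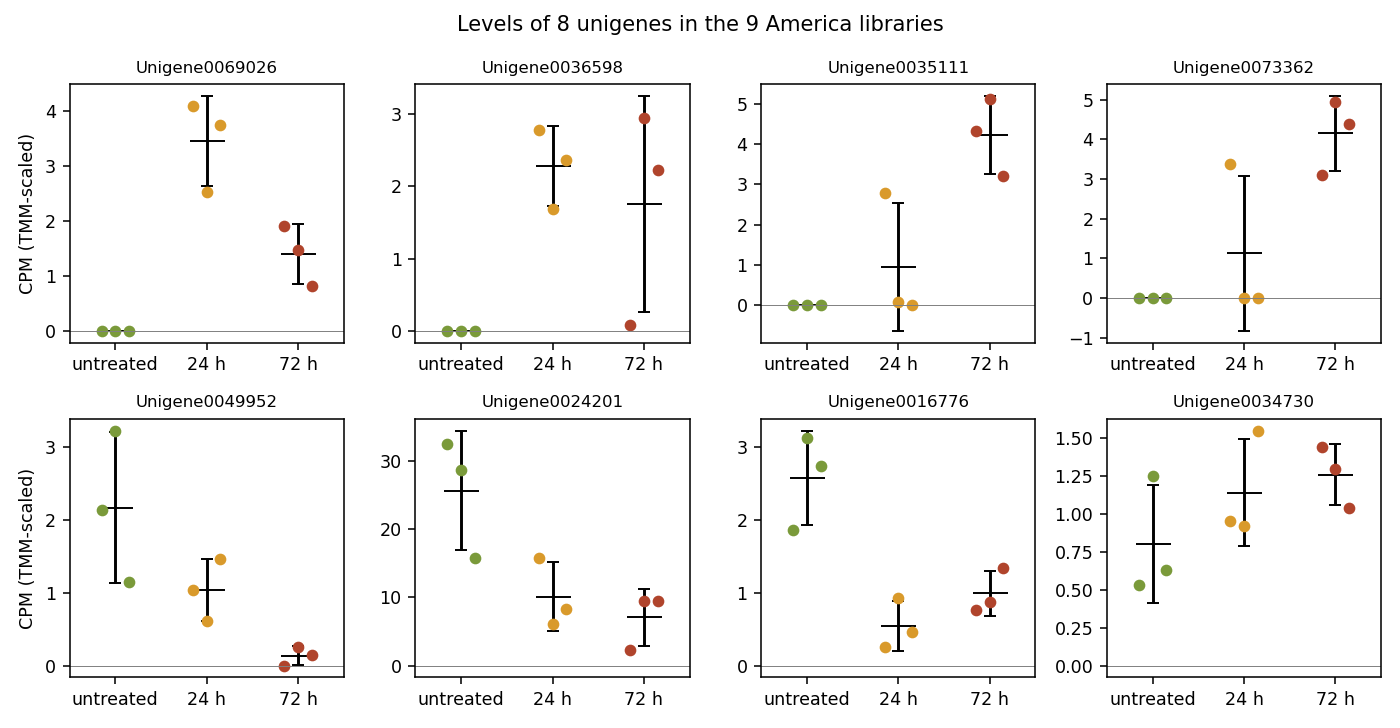
Levels of 8 America-restricted unigenes in the 9 America libraries, in CPM after TMM scaling. Points are libraries, bars give the mean and SD of 3, and each panel has its own vertical axis. Unigene0069026 has 0 counts in each untreated library, Unigene0035111 and Unigene0073362 stand high at 24 h in replicate 1 alone, and Unigene0034730, the steadiest member, stays between 0.532 and 1.55 CPM.

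Among the members that fell, Unigene0024201 had the highest level. That unigene, with an implied length of 4032 bases, averaged 7.11 ± 4.19 CPM after 72 h against 25.7 ± 8.75 CPM in untreated leaves (SD, n = 3 each), with a log2 fold change of -1.85 ± 0.53 SE (edgeR adjusted p = 0.0175). Its call was lost in 3 of 16 refits, with a highest edgeR adjusted p of 0.0655. These were the fits without untreated replicate 1 or 2 (edgeR adjusted p of 0.058 and 0.0513) and the fit with a replicate block. At 24 h Unigene0024201 averaged 10.1 ± 5.05 CPM and did not pass (edgeR adjusted p = 0.0725). Unigene0049952 had 0, 3 and 2 counts after 72 h against 24, 31 and 11 counts in untreated leaves, with a log2 fold change of -3.91 ± 0.90 SE (edgeR adjusted p = 0.00503). After 24 h it had 12, 8 and 16 counts, a range that overlapped the untreated libraries and lay above the 72 h libraries. Unigene0016776, with an implied length of 352 bases, was the only member that fell at 24 h. It had 3, 12 and 5 counts after 24 h against 21, 30 and 26 counts untreated, with a log2 fold change of -2.20 ± 0.60 SE (edgeR adjusted p = 0.0201). That call was lost without untreated replicate 2 or 3 or PEG 24 h replicate 1 or 3 (edgeR adjusted p of 0.0725, 0.0567, 0.072 and 0.0827) and when low counts were not filtered (0.0507). At 72 h it had 10, 10 and 18 counts, again below all untreated libraries, and did not pass (edgeR adjusted p = 0.093).

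Between 72 h and 24 h of PEG no member passed the edgeR test, against a background of 1.41% of all unigenes tested (0.809% higher and 0.605% lower). With no filter 1 of 56 passed, against 0.653%. The lowest adjusted p among the members was 0.11, and 8 of 43 had an unadjusted p under 0.05. Limma-voom called 6 members, 4 higher and 2 lower at 72 h, against a background of 1.93%. DESeq2 called 0 of the 4 to which it gave an adjusted p, against a background of 6.99%. Groups did not overlap in 3 members that were higher and 7 that were lower at 72 h, against 11.2% and 11.1% of all unigenes tested.

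Each member's length was recovered from the table, since a count divided by its FPKM and by the library total, times a constant, gives the length the authors divided by. In the 51 members with at least 10 counts in 2 libraries or more, the lengths from different libraries lay within 1.54% of each other. The implied length ranged from 334 to 4939 bases with a median of 994 and quartiles of 596 and 1613. It was under 500 bases in 10 members and at least 2000 bases in 7. The longest were Unigene0029786, at 4939 bases, and Unigene0078054, at 4141 bases, and the shortest were Unigene0078136, at 334 bases, and Unigene0016776, at 352 bases. Unigene0078054 had 107, 0 and 14 counts untreated, 98, 15 and 36 after 24 h and 28, 27 and 76 after 72 h, so that a long unit too could be empty in 1 replicate.

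The members were shorter than the other unigenes with an America mean of at least 10 counts, whose median was 1529 bases, and 17.9% of the members against 6.87% of those others were under 500 bases. Longer transcripts collect more counts, and at a mean of 10 to 20 counts the medians were 897 bases in the America-restricted unigenes and 954 bases in the others. At that level the lengths were close, and the gap in the full sets went with their difference in counts. The mirrored Iceland set had a median of 864 bases. By identifier, 23.2% of the members were numbered above 75000, against 9.81% of the other unigenes with an America mean of at least 10 and 9.59% of the mirrored set. What the numbering follows is not given in the sources used here.

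**Figure D5:**
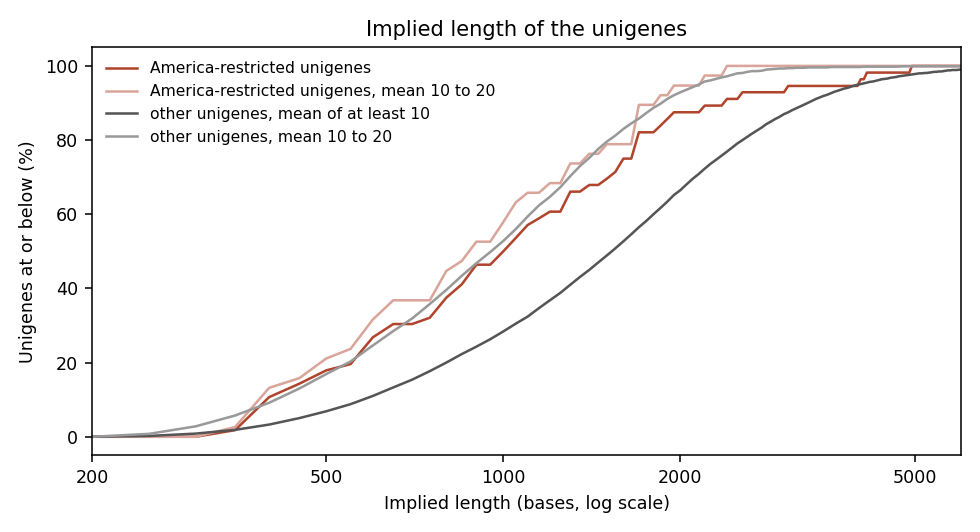
Cumulative share of unigenes (vertical axis, %) at or below an implied length (horizontal axis, bases on a log scale). The 56 America-restricted unigenes (dark red, median 994 bases) lie to the left of the others with an America mean of at least 10 counts (dark grey, median 1529 bases), while at a mean of 10 to 20 counts the curves of the members (light red, median 897 bases) and the others (light grey, median 954 bases) run close together.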

How the data were processed

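Leaf RNA of 18 Lupinus micranthus libraries was sequenced, 3 in each of 6 groups. Per the submitters' processing notes, bcl2fastq 2.0.1, cutadapt 1.18 and RSEM 1.3.1 were used, in roles that are not stated. No source used here gives the assembler or annotation. Per the file headers, the authors deposited a count and an FPKM value per unigene and library. The deposited counts are whole numbers, and unigenes of near-identical sequence may share reads.

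Counts were analysed as deposited in R 4.3.3. The filter filterByExpr kept 30895 unigenes, libraries were TMM-scaled, and edgeR 4.0.16, by its quasi-likelihood test on 6 groups with 12 residual degrees of freedom, gave p-values, Benjamini-Hochberg adjusted over all unigenes tested at 0.05. Folds against a group with 0 counts are lower bounds that take its true level to be at most 3 counts. They were computed at 3 counts over that group, from counts and TMM-scaled library sizes summed over each group. The 3 comparisons were PEG at each time against untreated America leaves and 72 h against 24 h. The fit was tried on simulated data in which every unigene had a biological coefficient of variation of 0.345. The tested members had a median of 0.817, so the simulation does not show how the test behaves for them. No replicate pair agreed within sampling noise. Over all unigenes tested, same-numbered America libraries did not deviate together, so the main fit has no replicate block.

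Alternatives were DESeq2 size factors, no filter, limma-voom (limma 3.58.1), DESeq2 1.42.0, America libraries only, a replicate block, other limits of the rule, and leaving out each library. Leaving out untreated Iceland replicate 3 and other detection limits were chosen after seeing the data. The members and tests were chosen with earlier results of these data known. The naming rule took at most 2 rises and 2 falls per comparison with a mean of 5 CPM, which left Unigene0024201 alone, plus members at the extremes of level, variation, length and the limits. The other unigenes named for a change or a shared pattern were chosen after their values were seen.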

Additional observations from a re-analysis of the deposited data

How the results depend on the processing

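Of the 23 calls of members against untreated America leaves (7 at 24 h and 16 at 72 h), 5 held in all 16 refits, those of Unigene0069026 and Unigene0036598 at both times and of Unigene0049952 at 72 h. The other 18 lost their call in at least 1 refit, and none changed direction in any refit. At 24 h, 16 of 56 members passed with no filter on low counts (28.6%, against 10.6% of all unigenes), 14 of 43 with limma-voom (32.6%, against 30.2%) and 4 of 43 with a replicate block (9.3%, against 27.5%). At 72 h, 19 of 43 passed with limma-voom (44.2%, against 36.3%), 9 of 41 with DESeq2 (22%, against 39.3%) and 8 of 43 with a replicate block (18.6%, against 33.6%). Without single America libraries 47 to 50 members were tested. Then 3 to 9 passed at 24 h, against a background of 20.2% to 27.9%, and 7 to 18 at 72 h, against 26.8% to 34.3%. Between 72 h and 24 h, 1 passed with no filter (background 0.653%), 6 with limma-voom (1.93%), and 0 without each America library (0.318% to 1.4%). Over all unigenes tested, same-numbered America libraries correlated in their deviations from the group means at -0.146 to 0.179 (median 0.011 over 9 pairs). The 18 pairs with different numbers lay between -0.168 and 0.15. Whether same-numbered libraries share a source in the members alone was not tested, so calls lost under the block remain uncertain. Without untreated Iceland replicate 3, 9 of 50 members (18%) passed at 24 h, against 31.6% of all unigenes, and 18 of 50 (36%) at 72 h, against 36.7%.

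The number of members depended on the limits of the rule: 25 with 0 Iceland counts, 117 with at most 10, 18 with an America mean of at least 20, 155 with at least 5, 26 with a median of at least 10, 17 with a count above 0 in all 9 America libraries, and 45 on TMM-scaled counts. Without single libraries it lay between 51 and 95. The members' summed level was 111 CPM, between 105 and 116 without single America libraries, and 191 when FPKM values scaled to the same total were summed. Their median implied length was 994 bases, or 971 without PEG 72 h replicate 3. Members detected in all 9 America libraries numbered 17 at a count above 0 and 2 at 10 counts or more, and those detected in at most 4 numbered 8 and 31. A mean of 10 counts over the 9 America libraries is 0.864 CPM. The members' wide errors also went with a larger spread between libraries than in other unigenes of a like level, and the part of depth in them was not tested.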
